A study of Mus musculus with 2 samples.

Results

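The 10 genes described here are immediate early genes, whose transcription starts within minutes of a stimulus without new protein synthesis: Fos, Fosb, Jun, Junb, Egr1, Egr2, Npas4, Nr4a1, Arc and Dusp1. They were chosen by symbol from the 43346 genes measured, not by their values, and all 10 were present in both gene tables. Total RNA longer than 200 nt was sequenced from a single newborn forebrain per library, of mouse strain B6NCrl at postnatal day 0, with 10 ng of RNA and added spike-in RNAs. Pup 1 was labelled replicate 1 and pup 3 replicate 2, both carry the same donor identifier, and the labels name neither a treatment nor a second tissue, so 2 animals form 1 group. The library of pup 1 held 40066386 expected counts and that of pup 3 held 40431595. An exact two-sided sign-flip test over 2 animals has a smallest p of 0.5, so no test was made and every value stands beside the spread between the pups, which may be technical in part.

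In neurons, calcium entry and growth factor signals reach these genes through MAP kinases, calcium-dependent kinases and transcription factors already present in the cell, among them CREB and the serum response factor SRF. Most of the proteins are themselves transcription factors that act on later genes, while Arc works at the synapse and Dusp1 switches MAP kinases off. Their RNAs are short-lived, and in the adult forebrain they are widely used as marks of recent neuronal activity.

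The forebrains of both pups held RNA of all 10 genes, from 43.4 and 39.0 TPM for Jun in pups 1 and 3 down to 0.28 and 0.23 TPM for Fosb. TPM is a level per transcript length and per library. At 1 TPM or more in both pups, 7 of the 10 were detected, beside 60.7% of 21474 protein-coding genes, and Egr2, Npas4 and Fosb were below that level. Jun, Dusp1 and Egr1 were above 17.0 TPM, the midpoint of the protein-coding genes so detected, and held 77.0% of the TPM of the 10 genes in pup 1 and 74.1% in pup 3. The median of the 10 genes was 7.66 TPM in pup 1 and 7.62 TPM in pup 3, and their TPM summed to 124.2 in pup 1 and 125.9 in pup 3. In bulk tissue, few cells with much RNA of a gene and many cells with little cannot be told apart.

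**Figure D1:**
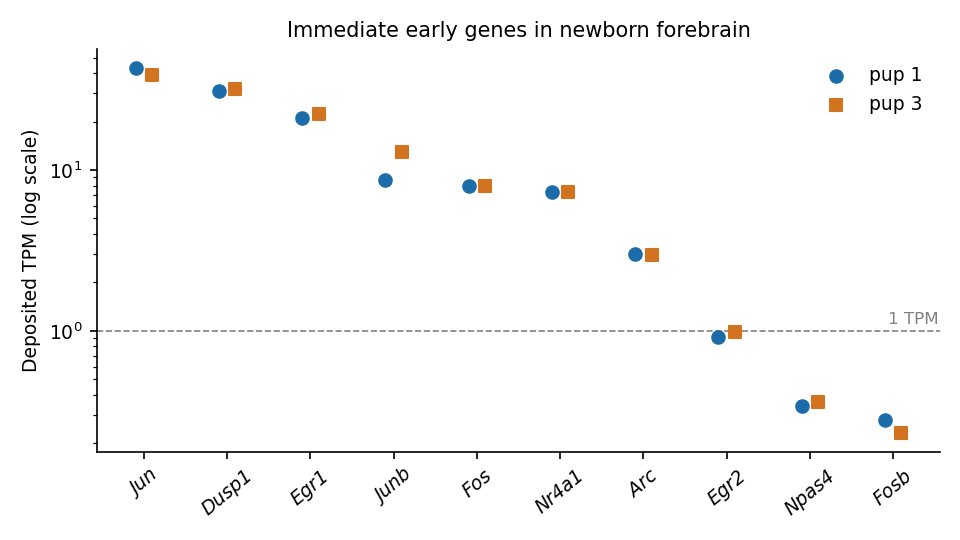
Deposited TPM (log scale) of the 10 immediate early genes in pup 1 (circles) and pup 3 (squares), in order of mean TPM, with a dashed line at 1 TPM. The levels run from Jun at 43.4 and 39.0 TPM to Fosb at 0.28 and 0.23 TPM, and Junb is the gene whose points lie farthest apart, at 8.64 and 12.9 TPM.

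Sequences of the start regions are shown because the core of the cyclic AMP response element, TGACG, was found in most of them. RefSeq promoters on GRCm38.p6, 250 bases before to 50 after a start site, were matched for 8 of the 10 genes, all but Arc and Egr1, and 6 are shown in part. TGACG, searched on both strands and counted also inside TGACGTCA, was present in 7 of these 8, all but Jun. It was present in 23.0% of 27025 genes with a promoter and in 35.1% of 10180 detected protein-coding genes. The stretches shown lie at chr12:85473804-85473848 on the plus strand for Fos, chr8:84978830-84978874 on the minus strand for Junb, chr4:95052240-95052287 on the minus strand for Jun, chr10:67537749-67537828 on the plus strand for Egr2, chr19:4990116-4990160 on the minus strand for Npas4 and chr17:26508588-26508632 on the minus strand for Dusp1. Each is written 5′ to 3′ on its gene's strand, and capitals mark TGACG, its reverse complement CGTCA, TGACGTCA in Dusp1, TGACATCA in Jun and the CArG box in Egr2.
Fos: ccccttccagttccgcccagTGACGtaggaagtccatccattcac
Junb: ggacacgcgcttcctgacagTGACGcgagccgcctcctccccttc
Jun: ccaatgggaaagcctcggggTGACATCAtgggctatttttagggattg
Egr2: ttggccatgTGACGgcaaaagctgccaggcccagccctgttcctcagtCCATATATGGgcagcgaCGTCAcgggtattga
Npas4: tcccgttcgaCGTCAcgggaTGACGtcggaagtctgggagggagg
Dusp1: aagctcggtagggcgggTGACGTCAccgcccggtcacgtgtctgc

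The whole palindrome TGACGTCA, the full site of CREB, was present in Dusp1 alone of the 8 and in 2.03% of all genes. In these windows Egr2 alone held a CArG box, the sequence that SRF binds, and 1.81% of all genes held it. In Jun the stretch TGACATCA stood 45 bases before the start site, a motif added after its sequence had been seen and present in 4.18% of all genes. TATAAA was present in Fos, 33 bases before the start site, in Junb, at the start site itself and not before it, and in 15.7% of all genes. The AP-1 sites TGACTCA and TGAGTCA were in none of the 8 windows and in 5.95% of all genes. Among detected protein-coding genes the shares were 3.53% for TGACGTCA, 1.66% for the CArG box and 2.13% for TGACATCA. They were 8.56% for TATAAA and 4.17% for the AP-1 sites. A match to these letters is a description of the window, not of a bound site. Bases more than 250 before a start site were not searched, nor were Egr1 and Arc. A motif not found here is therefore absent from the window only.

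Among the AP-1 subunits, leucine zipper proteins that bind DNA as pairs, Jun stood well above Junb and Fos, which did not differ beyond their spread, and Fosb was the lowest. Jun, the subunit that can pair with itself or with a Fos protein, had 43.4 TPM in pup 1 and 39.0 TPM in pup 3, a mean of 41.2 ± 3.11 (SD, n = 2), from 3337 and 3394 counts. Junb, a Jun relative with weaker activity of its own, had 8.64 TPM in pup 1 and 12.9 TPM in pup 3, from 374 and 631 counts. Its coefficient of variation of 27.9% was the widest of the 10 genes. Fos, which binds DNA only with a partner, had 8.01 TPM in pup 1 and 7.98 TPM in pup 3, from 366 and 416 counts. Fosb, whose truncated product accumulates under repeated stimulation in the adult, had 0.28 TPM in pup 1 and 0.23 TPM in pup 3. These rest on 25 and 24 counts, with exact Poisson intervals of 16.2 to 36.9 in pup 1 and 15.4 to 35.7 in pup 3. Such intervals cover counting error only.

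The ratios within each library separate these subunits. Fos exceeded Fosb 21.3-fold in pup 1 and 24.5-fold in pup 3, and Jun exceeded Junb 4.98-fold in pup 1 and 3.01-fold in pup 3, on TPM + 0.1. Fos stood at 0.186 of Jun in pup 1 and 0.206 in pup 3. All these ratios lay farther from 1 than 3 SD between the pups on the log2 scale. Their size depends on the settings: the mean log2 ratio of Fos over Fosb was 4.51, but 2.84 with a pseudocount of 1 and 3.79 with counts not divided by length. Without that division, Jun over Junb was 2.78 in place of 1.95, and Fos over Jun -3.10 in place of -2.35. Jun lies at chromosome 4, 95049034 to 95052222, on build mm10, Junb at chromosome 8, 84974484 to 84978718, Fos at chromosome 12, 85473890 to 85477273, and Fosb at chromosome 7, 19302696 to 19310051. An antisense gene, Junos, overlaps Jun by 689 bases and had 23.6 and 13.5 counts in pups 1 and 3. Since strand use is not stated, reads of Jun and Junos cannot be told apart there. On the other strand, Prdx2, with 23971 and 29803 counts in pups 1 and 3, overlaps the extent of Junb by 351 bases. That extent is of the newer annotation and longer than the measured Junb transcript of 1840 bases. Whether reads of Prdx2 entered the Junb counts was not tested.

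The zinc finger factors of the Egr family bind GC-rich sites, and their 2 members here differed widely in level. Egr1 had 21.1 TPM in pup 1 and 22.2 TPM in pup 3, a mean of 21.7 ± 0.778 (SD, n = 2), from 1605 and 1929 counts. Egr2, known from the patterning of the embryonic hindbrain and from myelinating Schwann cells, had 0.92 TPM in pup 1 and 0.99 TPM in pup 3, from 53 and 79 counts. Egr1 exceeded Egr2 20.8-fold in pup 1 and 20.5-fold in pup 3. The mean log2 ratio, 4.37, was 3.64 by the posterior mean and 3.53 with a pseudocount of 1. The deposited effective length of Egr2, by which counts are divided for TPM, was 2329 bases in pup 1 and 2839 in pup 3. The deposited posterior mean put Egr2 at 1.54 TPM in pup 1 and 1.68 TPM in pup 3, on the other side of the detection level.

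Npas4, a neuron-specific basic helix-loop-helix factor that responds to calcium entry, had 0.34 TPM in pup 1 and 0.36 TPM in pup 3. It rests on 27 counts in pup 1 and 32 in pup 3, too few to tell a small difference between the pups from none. Nr4a1, an orphan nuclear receptor, had 7.30 TPM in pup 1 and 7.26 TPM in pup 3, from 431 and 485 counts. Npas4 lies at chromosome 19, 4984355 to 4990316, and Nr4a1 at chromosome 15, 101254269 to 101274795.

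Of the 2 effectors, Arc and Dusp1, Dusp1 was the more abundant. Arc, a synaptic protein that forms capsid-like particles and promotes removal of AMPA receptors, had 3.01 TPM in pup 1 and 2.95 TPM in pup 3, from 221 and 245 counts. Arc exceeded Npas4 7.07-fold in pup 1 and 6.63-fold in pup 3, and stood below Egr1 by 6.82-fold in pup 1 and 7.31-fold in pup 3. With a pseudocount of 1 the mean log2 ratio of Arc over Npas4 was 1.56 in place of 2.78. Dusp1, the phosphatase that inactivates MAP kinases in the nucleus, had 31.1 TPM in pup 1 and 32.0 TPM in pup 3, from 1410 and 1641 counts. Arc lies at chromosome 15, 74669083 to 74672570, and Dusp1 at chromosome 17, 26505590 to 26562128. That extent of Dusp1, from the newer annotation, also overlaps other genes, among them Ergic1 on the other strand by 640 bases.

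In order of mean TPM the genes ran Jun, Dusp1, Egr1, Junb, Fos, Nr4a1, Arc, Egr2, Npas4 and Fosb. Jun and Dusp1, Junb and Fos, and Npas4 and Fosb did not differ beyond 3 SD of their gap, so their order is not settled by 2 pups. The other 6 neighbouring pairs did, each in the same order in both pups. However, an SD from 2 pups can fall below counting error. For Fos over Nr4a1 the SD of the gap was 0.00707 TPM, while their deposited intervals overlapped in both pups. In pup 1 these ran from 7.26 to 9.54 TPM for Fos and from 6.47 to 7.82 TPM for Nr4a1, so their order is not settled either. Without division by length, Egr1 with 40.1 and 47.7 CPM (counts scaled to library size) in pups 1 and 3 passed Dusp1 with 35.2 and 40.6. Nr4a1 also passed Fos in both pups, so the TPM order of these pairs was seen per length only. Jun ranked at percentile 71.5 of detected protein-coding genes, Fos at 31.3 and Nr4a1 at 29.3.

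Differences between the pups were small for most of the 10 genes. None of the 7 genes with a mean of 1 TPM or more was past 2-fold, beside 5.45% of 14985 genes, or past 1.5-fold, beside 21.4%. On TPM + 0.1 the ratio, pup 1 over pup 3, was 1.00 for Fos, 1.01 for Nr4a1, 1.02 for Arc, 0.973 for Dusp1 and 0.951 for Egr1. Junb had the most unequal ratio at 0.673, a level as low as in 1.70% of all genes. The deposited intervals of the pups did not overlap for Jun and Junb, 2 of these 7 genes, beside 53.6% of all genes. For Jun they ran from 41.0 to 43.9 TPM in pup 1 and from 36.9 to 39.5 TPM in pup 3. For Junb they ran from 7.61 to 9.32 TPM in pup 1 and from 11.6 to 13.6 TPM in pup 3.

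The direction of these ratios depends on the scaling. Over all 14985 genes the median log2 ratio of TPM was 0.27, and it was -0.03 once counts were scaled by TMM, a trimmed mean over genes. The median of the 10 genes was -0.02 with TPM and -0.32 with TMM. By TPM, 3 of the 7 genes were higher in pup 3, beside 19.5% of all genes, and after TMM 7 of 7, beside 53.8%. Fosb, Npas4 and Egr2 were also lower in pup 1 after TMM, so all 10 genes had that sign. After TMM the count ratio was 0.540 for Junb, with an exact 95% interval of 0.474 to 0.615. It was 0.896 for Jun (0.854 to 0.940), 0.802 for Fos (0.695 to 0.925) and 0.758 for Egr1 (0.709 to 0.811). For Fosb the interval ran from 0.520 to 1.74 and for Npas4 from 0.443 to 1.33, both on either side of 1. Those of the other 8 genes lay below 1, but such intervals cover counting error only, with 1 library per pup. The share of all genes with an interval below 1 was not computed, so this count cannot be read as particular to the 10 genes. At 1.5-fold after TMM, 1 of the 7 genes was called, Junb, beside 10.6% of all genes.

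**Figure D2:**
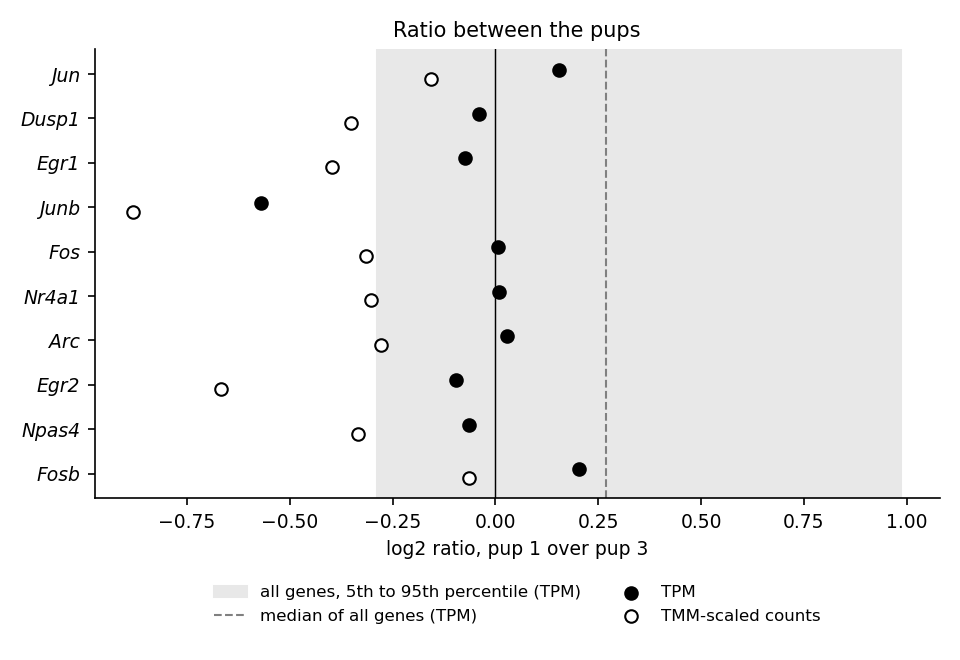
Log2 ratio of pup 1 over pup 3 for each of the 10 genes, from TPM + 0.1 (filled) and from TMM-scaled counts (open). The shaded band is the 5th to 95th percentile of 14985 genes by TPM, -0.29 to 0.99, and the dashed line their median, 0.27. By TPM only Junb lies outside the band, at -0.57, and every open point lies left of 0.

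The tissue label was checked against markers. All 7 forebrain markers were detected, while Hoxa2 and Hoxb2, of the hindbrain, were at 0 in both. Of 6 midbrain and hindbrain markers, Gbx2, which the thalamus also expresses, was detected, at 18.5 TPM in pup 1 and 7.65 TPM in pup 3. The forebrain markers differed in both directions: Neurod6, of cortical excitatory neurons, had 206.2 TPM in pup 1 and 329.5 TPM in pup 3, and Bcl11b, of deep-layer and striatal neurons, 60.3 and 37.4 TPM. In all, 4 of the 7 were higher in pup 3 by TPM, beside 19.5% of all genes, and 5 after TMM, beside 53.8%. Summed neuronal markers (5 of 5 detected) reached 4207 TPM in pup 1 and 3471 TPM in pup 3, and astrocyte markers (4 of 4) 284.4 and 202.6 TPM. Such TPM sums are to be read beside the median ratio of all 14985 genes, 1.20 for pup 1 over pup 3. After TMM, Tubb3 and Gap43, the most abundant of the neuronal markers, had ratios of 0.870 and 1.02. Higher in pup 3 after TMM were 1 of the 5 neuronal and 0 of the 4 astrocyte markers, beside 53.8% of all genes. Microglial markers (5 of 5) summed to 97.3 and 95.9 TPM, with C1qb at 58.4 and 65.0 TPM and Cx3cr1, past 2-fold, at 9.16 and 4.25 TPM in pups 1 and 3. Endothelial markers (5 of 5) summed to 145.2 and 142.2 TPM, and erythroid markers (3 of 4) to 1591 and 2274 TPM in pups 1 and 3. The part of these differences in the ratios of the immediate early genes was not tested.

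Within their families the 10 genes were not always the most abundant. Fos led the Fos family with 61.7% of its TPM in pup 1 and 70.2% in pup 3, followed by Fosl2 with 27.7% and 23.0%. Fosl1 had 8.47% and 4.84%, and Fosb had the smallest share at 2.16% and 2.02%. Without division by length, Fosl2 with 12.9 and 10.5 CPM in pups 1 and 3 passed Fos with 9.13 and 10.3, so Fos led per length only. In the Jun family, Jund, the subunit least dependent on stimulation, held 47.6% in pup 1 and 45.1% in pup 3. Jun followed with 43.7% and 41.3%, and Junb had 8.69% in pup 1 and 13.6% in pup 3. Jund exceeded Jun 1.09-fold in both pups (it was below Jun where counts were not divided by length), at 47.3 TPM in pup 1 and 42.6 TPM in pup 3. Summed, the Jun family had 99.4 TPM in pup 1 and 94.5 TPM in pup 3, and the Fos family 13.0 and 11.4 TPM.

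Egr1 took 80.5% of the Egr family in pup 1 and 84.8% in pup 3. Egr3 held 9.76% and 5.04%, Egr4 6.25% and 6.38%, and Egr2 3.51% in pup 1 and 3.78% in pup 3, the smallest share by TPM. By the posterior mean, Egr2 in pup 3, at 1.68 TPM, was above Egr4 at 1.66 and Egr3 at 1.32 TPM. In the Nr4a family, Nr4a1 had the smallest share by TPM in both pups. Nr4a2, a factor of dopamine neurons and of deep cortical layers, held 74.1% in pup 1 and 58.5% in pup 3, and Nr4a1 10.5% and 20.5%. Nr4a3, the third receptor of the family, had 10.65 TPM in pup 1 and 7.47 TPM in pup 3. Nr4a2 had 51.4 TPM in pup 1 and 20.8 TPM in pup 3, and was the 1 of 10 family relatives with a mean of 1 TPM or more that was past 2-fold by TPM, beside 5.45% of all genes. After TMM its ratio was 1.99, no longer past 2-fold. The ratio of Nr4a1 to Nr4a2, 0.144 in pup 1 and 0.353 in pup 3, did not exceed 3 SD between the pups. Dusp6, a cytoplasmic phosphatase specific for ERK, stood close to Dusp1 at 32.1 TPM in pup 1 and 34.4 TPM in pup 3. Dusp4 had 26.1 and 23.4 TPM, Dusp2 17.6 and 15.9 TPM, and Dusp5 4.35 and 3.25 TPM in pups 1 and 3.

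Of 26 further immediate early genes, 23 were detected, beside 60.7% of protein-coding genes. Their median was 9.15 TPM beside 7.64 TPM for the 10 genes, and their range was wider, from 0.125 to 184.6 mean TPM. Plk2, a kinase of synaptic scaling, was the highest at 186.4 TPM in pup 1 and 182.9 TPM in pup 3, followed by Myc with 45.7 and 50.7 TPM and Klf6 with 51.6 and 33.8 TPM. Ptgs2, the inducible cyclooxygenase, was the lowest at 0.18 TPM in pup 1 and 0.07 TPM in pup 3, below Maff at 0.83 and 0.60 TPM. None of the 24 with a mean of 1 TPM or more was past 2-fold, beside 5.45% of all genes. Of these 24, 10 were higher in pup 3 by TPM and 19 after TMM, to be read beside 19.5% and 53.8% of all genes. Their median log2 ratio was 0.09, that of the 10 genes -0.02 and that of all genes 0.27.

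The factors and kinases that act on these genes were all detected, 28 of 28 beside 60.7% of protein-coding genes, with a median of 14.6 TPM. Mef2c, a transcription factor of cortical neurons, had 150.3 TPM in pup 1 and 185.7 TPM in pup 3. Ppp3ca, the catalytic subunit of calcineurin, had 194.6 and 133.9 TPM, and Map2k2, the kinase above ERK, 166.7 and 138.5 TPM. Srf was the lowest of the list at 1.66 TPM in pup 1 and 1.77 TPM in pup 3, below the ribosomal S6 kinase Rps6ka3 at 2.42 and 1.92 TPM. Both Camk4, a calcium-dependent kinase that phosphorylates CREB, with 15.7 TPM in pup 1 and 6.56 TPM in pup 3, and Atf1, a CREB relative, with 8 and 3.82 TPM, were past 2-fold by TPM, 2 of 28 beside 5.45% of all genes. After TMM neither was, with ratios of 1.92 for Camk4 and 1.51 for Atf1. By TPM 2 of these 28 were higher in pup 3, beside 19.5% of all genes, and after TMM 12, beside 53.8%.

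Partners and direct regulators of the proteins were detected in 11 of 12 cases, beside 60.7% of protein-coding genes, with a median of 10.6 TPM. Arnt2, with which Npas4 pairs in neurons, had 49.0 TPM in pup 1 and 40.1 TPM in pup 3, above Npas4 itself in both pups. Mapk10 and Mapk9, kinases that phosphorylate Jun, had 63.1 and 47.7 TPM in pup 1 and 52.0 and 34.3 TPM in pup 3. Nab1, a corepressor of Egr proteins, with 8.22 TPM in pup 1 and 3.81 TPM in pup 3, and Arnt, another helix-loop-helix partner, with 6.78 and 3.32 TPM, were past 2-fold by TPM, 2 of 11 beside 5.45% of all genes. After TMM neither was, with ratios of 1.72 for Nab1 and 1.56 for Arnt. Jdp2, a repressor of AP-1 sites, was the lowest at 0.21 TPM in pup 1 and 0.44 TPM in pup 3, below Batf3, a leucine zipper partner of Jun proteins, at 1.13 and 1.01 TPM.

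**Figure D3:**
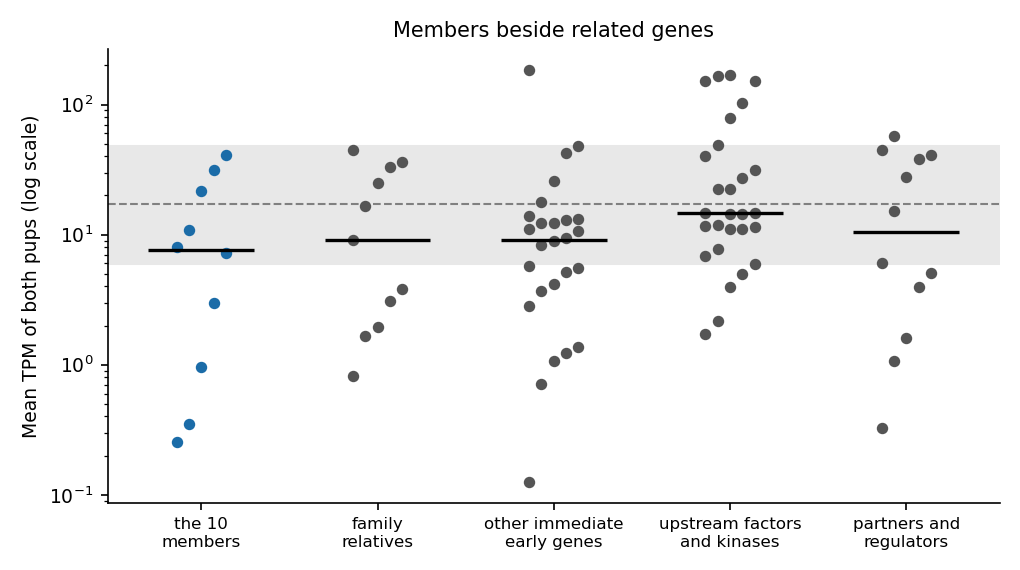
Mean TPM of both pups (log scale) for the 10 immediate early genes (blue) and 4 lists of related genes (grey), each point a gene and each bar a list's median. The shaded band is the middle range, 5.92 to 47.8 TPM, of detected protein-coding genes between their quartiles, and the dashed line their median, 17.0 TPM. All 5 medians lie below that line, from 7.64 TPM for the 10 genes to 14.6 TPM for the upstream factors and kinases. Except for the upstream factors and kinases, the lists also hold genes below the detection level, which the line leaves out. Over the 7 detected of the 10 genes the median was 10.8 TPM.

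Transcript estimates gave the same leading transcript in both pups for 10 of 10 genes. Fosb, Jun, Junb, Npas4 and Nr4a1 had 1 measured transcript each, so their shares carry no information. Fos-201, the coding transcript of Fos, held 86.7% of the gene's TPM in pup 1 and 88.0% in pup 3, and of its noncoding transcripts Fos-203 held 6.42% and 7.70% and Fos-204 6.90% and 4.32%. Egr1-202 held 91.7% in pup 1 and 89.7% in pup 3. For Dusp1 the spliced coding Dusp1-202 held 89.4% in both pups, and the retained-intron transcripts Dusp1-204 and Dusp1-203 held 7.11% and 3.51% in pup 1 and 6.97% and 3.64% in pup 3. Arc-201 held 68.8% in pup 1 and 76.8% in pup 3, the rest being Arc-202, whose length of 3054 bases is 1 short of that of Arc-201.

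Egr2 was the exception. Egr2-201 held 39.2% of the gene's TPM in pup 1 and 98.9% in pup 3, a mean of 69.1% ± 42.2 (SD, n = 2). In pup 1 the rest went to Egr2-202 with 30.6%, Egr2-205 with 22.0% and Egr2-203 with 8.20%, each at 0 in pup 3. Behind these shares are 53 counts in pup 1 and 79 in pup 3, and 3.37 expected counts for Egr2-205, a transcript of 773 bases. By the posterior mean, Egr2-201 held 18.5% in pup 1 and 43.2% in pup 3, and in pup 1 Egr2-207 held more, 21.5%.

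**Figure D4:**
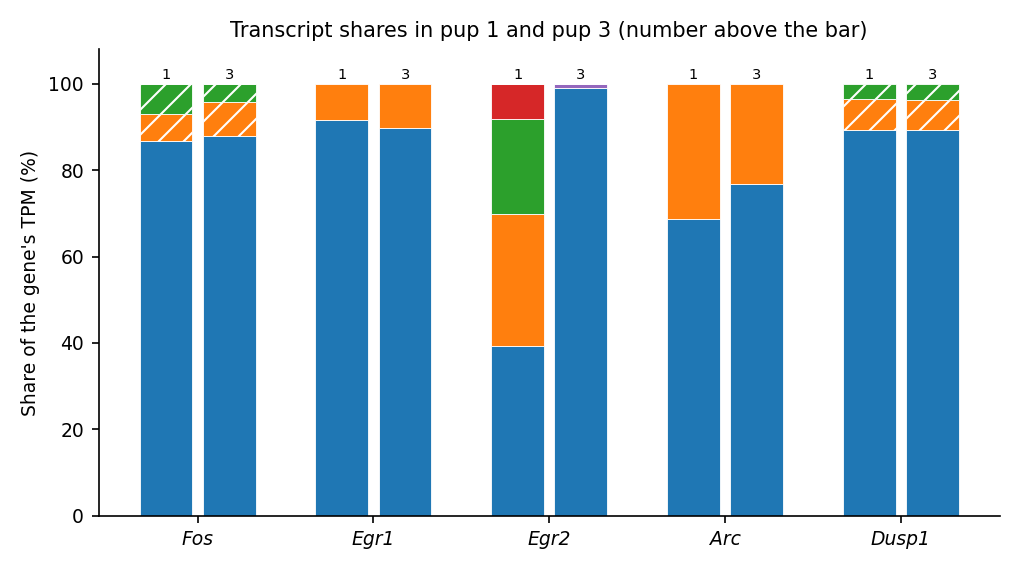
Share of each gene's TPM (%) by transcript for the 5 genes with several measured transcripts, in pup 1 (bar marked 1) and pup 3 (bar marked 3), with the leading transcript at the bottom and noncoding transcripts hatched. Colours separate transcripts within a gene. The bars of a gene are alike in both pups except for Egr2, whose leading transcript holds 39.2% in pup 1 and 98.9% in pup 3.

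The 10 genes also share a short gene body. In the leading coding transcript, the median span was 3618 bases beside 21568.5 bases over 13000 detected protein-coding genes, and the median number of exons 3.5 beside 8. Jun and Junb have 1 exon each, Nr4a1 has 7 and Npas4 8. Nr4a1 had the longest span, 7950 bases, and Junb the shortest, 1809 bases.

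The 3′ UTRs were searched for ATTTA, the pentamer of AU-rich elements through which short-lived RNAs are degraded. The median was 2.87 per kb of 3′ UTR in the 10 genes, beside 1.32 per kb in detected protein-coding genes, and 5 of 10 had 3 or more copies, beside 32.1%. Dusp1 had 4 copies, or 5.80 per kb, Nr4a1 3, or 5.52 per kb, and Fos 4, or 4.91 per kb. Arc had none, and Fosb had 1 in a 3′ UTR of 2145 bases. Stretches of 30 bases are shown for Fos and Dusp1, in which copies overlapped, and for Jun, with each ATTTA in capitals. They are written 5′ to 3′ from the leading transcript in the GENCODE M21 annotation.
Fos: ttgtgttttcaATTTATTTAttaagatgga
Dusp1: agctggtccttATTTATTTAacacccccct
Jun: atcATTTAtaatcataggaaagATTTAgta

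The density of the pentamer did not follow the level of the RNA in a single order. Dusp1 and Nr4a1, with like densities, stood at 31.6 and 7.28 mean TPM, and Arc, with no copy, at 2.98 TPM. A copy of ATTTA is a description of the sequence, and RNA stability was not measured.

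**Figure D5:**
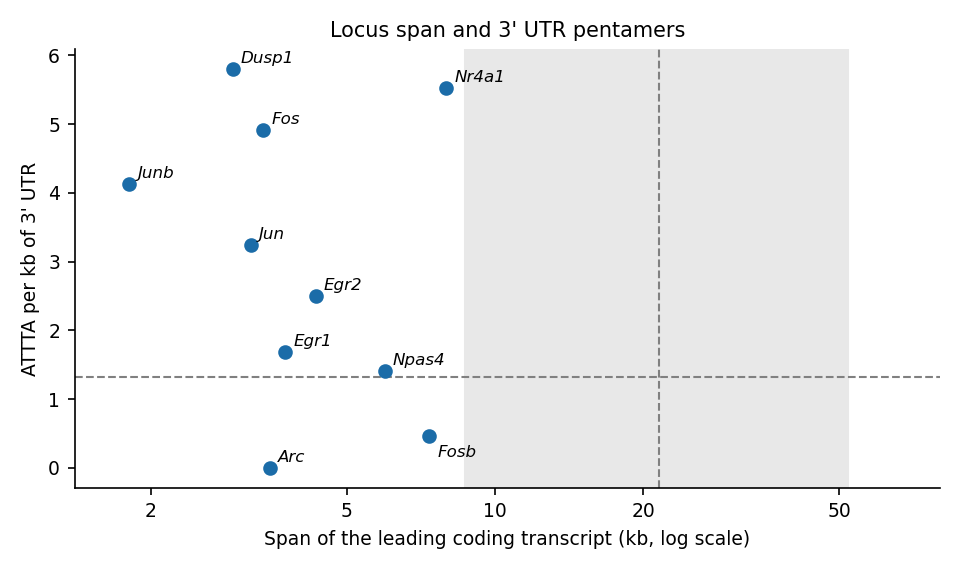
Span of the leading coding transcript (kb, log scale) and copies of ATTTA per kb of 3′ UTR for the 10 genes, each point a gene. The shaded band and the vertical dashed line are the quartiles and the median span of detected protein-coding genes, and the horizontal dashed line their median density, 1.32 per kb. All 10 points lie left of the band, and 8 lie above the horizontal line, with Fosb and Arc below it.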

How the data were processed

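Total RNA-seq libraries of 2 newborn forebrains were analysed. Per the deposited notes, the genome was mm10 and the annotation GENCODE M4. Aligner, quantifier and strand use were not given in the sources used here. Expected counts, TPM, FPKM and, for transcripts, the percent of a gene's TPM are used as deposited, per the file headers, with posterior means and credibility intervals of unstated level. Gene identifiers were matched, without version, to GENCODE M21 (GRCm38) for symbols and positions. Columns of other samples numbered 0. Expected counts were rounded to whole numbers for TMM (edgeR 4.0.16, R 4.3.3) and DESeq2 1.42.0 size factors. Ratios used TPM + 0.1, which understates changes of low genes. The 2-fold rule was tested on simulated counts with Poisson noise only and with the median ratio subtracted. As used here it had no such subtraction, so that test does not cover the spread or the median shift of these data. Intervals of count ratios are exact Clopper-Pearson, of counts exact Poisson. Python 3.11.15 with pandas 2.3.3, numpy 2.4.6 and scipy 1.17.1 did the rest, and figures were drawn with matplotlib 3.10.9. Detection meant 1 TPM or more in both pups. All 10 genes and all family relatives are named, and of other lists the 3 highest and 2 lowest by mean TPM and genes of 9 pairs; markers and genes past 2-fold were added after their values were seen. Members and lists were chosen with earlier results of these data known. Listed genes measured numbered 123 of 123. The value of 1 marker gene is not reported here.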

Additional observations from a re-analysis of the deposited data

How the results depend on the processing

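Each pup's own value bounds the median of the 10 genes, 7.62 TPM without replicate 1 and 7.66 TPM without replicate 2. That median was 7.75 TPM from the posterior mean, 5.03 with FPKM and 10.8 TPM over the 7 genes detected in both pups. The median log2 ratio, -0.02, was -0.32 with TMM-scaled and -0.32 with DESeq2-scaled counts. It was 0.0053 over genes with a mean of 1 TPM or more, a change of sign near 0. At 1.5-fold with TMM-scaled counts, a setting chosen after the data were seen, 1 of the 7 genes with a mean of 1 TPM or more, Junb, was past the threshold, against 0 at 2-fold. Egr2, below that mean, was past it too, at a ratio of 0.630. Jund over Jun turned to -0.028 on the log2 scale with counts not divided by length. Detected genes numbered 7, 8 at 0.5 TPM or by the posterior mean and 10 at 10 counts. TGACG stayed in 7 of 8 promoters in the 250 bases before the start site, a window added later. No paired analysis was possible because both libraries belong to 1 group. Depth limits Fosb, Npas4 and Egr2, with under 100 counts per pup.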
